A study of Mus musculus with 6 samples.

Results

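The receptor chain of interleukin-1 (IL-1) and interleukin-17 (IL-17) was followed in mouse 3T3 fibroblasts with and without induced human poly(ADP-ribose) glycohydrolase (hPARG), the enzyme that takes poly(ADP-ribose) apart. The chain was represented by 10 genes of the 41819 in the count table. These genes were chosen by name for their place in the pathway, with earlier results of these data known. They are the receptors Il1r1, Il1rap, Il1rl1, Il17ra and Il17rc, the adaptors Traf3ip2 and Myd88, the kinases Irak1 and Irak4, and the ubiquitin ligase Traf6. Poly(A) RNA was sequenced from 6 dishes of a single clone that carried a lentiviral hPARG cassette behind the doxycycline-dependent TetOne promoter. The labels call the mClover3 fluorescent protein of this cassette cleavable, whereas the methods place it after an internal ribosome entry site (IRES). The control group was 3 dishes grown for 72 h with 0 ng/ml doxycycline, and the hPARG group was 3 dishes grown for 72 h with 500 ng/ml. Both groups carried the cassette, and no cells without it were given doxycycline in these libraries, so the effects of doxycycline and of hPARG cannot be told apart. The submitters' labels call the cells malignant and name wells of a 6-well plate, whereas 10 cm dishes are named in the study's methods, and dish is the term kept here. The methods describe the dishes as split at the same time from a culture of the clone, so the tests measure the spread between parallel dishes.

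IL-1 binds Il1r1, which recruits the shared co-receptor Il1rap, while IL-33 binds Il1rl1 (also called ST2) and uses the same co-receptor. The cytoplasmic domains of these receptors gather the adaptor Myd88, then the kinases Irak4 and Irak1, and finally Traf6, which builds the ubiquitin chains that switch on NF-kB and MAP kinase signalling. IL-17A and IL-17F bind a receptor made of Il17ra and Il17rc, whose adaptor Traf3ip2 (also called Act1) leads to the same Traf6. Fibroblasts are known responders to these cytokines, and Il1rl1 was originally isolated as a serum-induced gene of 3T3 cells, with a secreted and a membrane form made from separate promoters.

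The count totals lay between 21619908 and 25263818 per dish, at which a floor of 3 counts equals 0.119 to 0.139 CPM, the count relative to the size of the library, and covers counting error only. Levels are CPM after TMM normalization unless they are called RPKM, and differences are log2 fold changes of hPARG over control from edgeR's quasi-likelihood test, with false discovery rates (FDR) over the 11509 genes that passed the filter on low counts. The dishes numbered 2 stood apart from the others in both groups, with deviations that followed exon length at Spearman's rho of 0.53 and 0.52 across genes, against -0.51 to -0.25 in the other 4 dishes. The hPARG cassette has no row in the table, and the mouse Parg gene held 51.3 ± 4.63 CPM in the control and 52.7 ± 4.31 CPM in the hPARG dishes (SD, n = 3 each). Of 10 fibroblast markers 9 passed the filter, 0 were called, and their summed levels were 7212 to 8397 CPM in control and 8302 to 9529 CPM in hPARG dishes. Among them Col1a1 (log2 fold change 0.58), Col3a1 (0.39) and Thy1 (0.30) were higher in every hPARG dish than in any control dish. That is 3 of 9, beside 3.61% of all tested genes. Pdgfra (-0.40) was lower in every hPARG dish, 1 of 9 beside 6.0%, and Fn1 (0.40) overlapped. The FDR was between 0.946 and 0.999 for the 5, and their part in the results was not tested. The macrophage list (2 of 6 genes tested) summed to 13.4 to 18.0 CPM in control and 10.5 to 17.4 CPM in hPARG dishes. Its tested genes were present, with control and hPARG means of 6.48 and 6.20 CPM for Lyz2 and 9.42 and 8.06 CPM for Cd14. Adgre1 had 0 counts in every dish. The T and mast cell list (0 of 6 tested) summed to at most 0.129 and 0.275 CPM in control and hPARG dishes, with Cd3e, Cpa3 and Mcpt4 at 0. The epithelial and endothelial list (1 of 7 tested) summed to at most 1.91 and 1.74 CPM. In these lists 0 genes were called. In bulk RNA, fewer cells with a transcript and less of it per cell cannot be told apart.

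The promoter sequences of the members whose groups did not overlap are shown first. None of these members was called, and the groups did not overlap for 9.62% of all tested genes. RefSeq (GRCm38.p6) gave 11 promoter windows for 8 of the 10 genes, each cut here to the 250 bases before a transcript start, and no window for Il17ra and Traf3ip2. Both windows of Il1rl1 and that of Myd88 are printed because these genes had lower levels in every hPARG dish than in any control dish, and the second window of Il1r1 because Il1r1 had higher levels in every hPARG dish and this window held the only match to the NF-kB binding consensus (kappa B) among the 11. Capitals mark that match. The sequences run 5′ to 3′ on the strand of the gene.

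Il1rl1, upstream start, chr1:40429320-40429569, plus strand: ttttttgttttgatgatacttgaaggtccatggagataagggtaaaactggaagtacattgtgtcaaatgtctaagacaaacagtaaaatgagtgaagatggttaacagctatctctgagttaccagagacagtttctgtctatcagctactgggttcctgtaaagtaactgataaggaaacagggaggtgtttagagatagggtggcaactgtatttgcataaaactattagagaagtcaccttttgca
Il1rl1, downstream start, chr1:40439379-40439628, plus strand: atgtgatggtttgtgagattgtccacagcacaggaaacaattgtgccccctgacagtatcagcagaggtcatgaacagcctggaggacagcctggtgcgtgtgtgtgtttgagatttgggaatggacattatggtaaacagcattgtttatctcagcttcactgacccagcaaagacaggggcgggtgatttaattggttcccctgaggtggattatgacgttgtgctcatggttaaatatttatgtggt
Myd88, chr9:119340019-119340268, minus strand: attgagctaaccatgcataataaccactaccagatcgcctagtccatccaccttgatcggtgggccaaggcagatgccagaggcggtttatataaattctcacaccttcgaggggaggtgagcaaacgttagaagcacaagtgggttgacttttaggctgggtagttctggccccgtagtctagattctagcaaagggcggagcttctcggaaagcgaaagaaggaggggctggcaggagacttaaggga
Il1r1, downstream start, chr1:40266336-40266585, plus strand: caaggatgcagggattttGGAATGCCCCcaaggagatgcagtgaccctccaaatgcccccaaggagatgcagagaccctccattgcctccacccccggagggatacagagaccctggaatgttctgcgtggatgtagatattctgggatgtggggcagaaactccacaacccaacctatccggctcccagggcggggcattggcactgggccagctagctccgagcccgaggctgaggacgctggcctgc

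Of the Il1rl1 windows, the upstream one had 37.6% G and C with 0 CpG dinucleotides, and the downstream one 46.4% with 3. The Myd88 window had 51.2% G and C with 9 CpG dinucleotides. The kappa B match in Il1r1 began 232 bases before the start, and 3.9% of 32851 mouse windows of the same length held at least 1 match on either strand. The AP-1 motif TGANTCA was found on either strand in 0 of the 11 windows and in 6.75% of all windows. A match or its absence describes these letters only.

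None of the 10 chain genes was called at FDR under 0.05 by edgeR's quasi-likelihood test without a replicate block, and all 10 passed the filter on low counts. Over all tested genes 10 were called, which is 0.0869%. At an unadjusted p under 0.05 there were 3 of the 10 (Myd88, Il1rl1 and Il1rap, each lower with hPARG) and 455 of all tested genes, or 3.95%, of which 292 (2.54%) were lower and 163 (1.42%) higher. DESeq2 and edgeR's likelihood ratio test, also without a block, called 0 of the 10. The median log2 fold change was -0.08 over the 10 genes and 0.0039 over all tested genes. Estimates were below 0 for 7 genes and above 0 for 3, although those of Traf3ip2, Traf6 and Irak1 changed sign when some dishes were left out. The 95% interval lay within a 2-fold difference in both directions for all 10 genes, as it did for 90.8% of the genes tested.

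**Figure D1:**
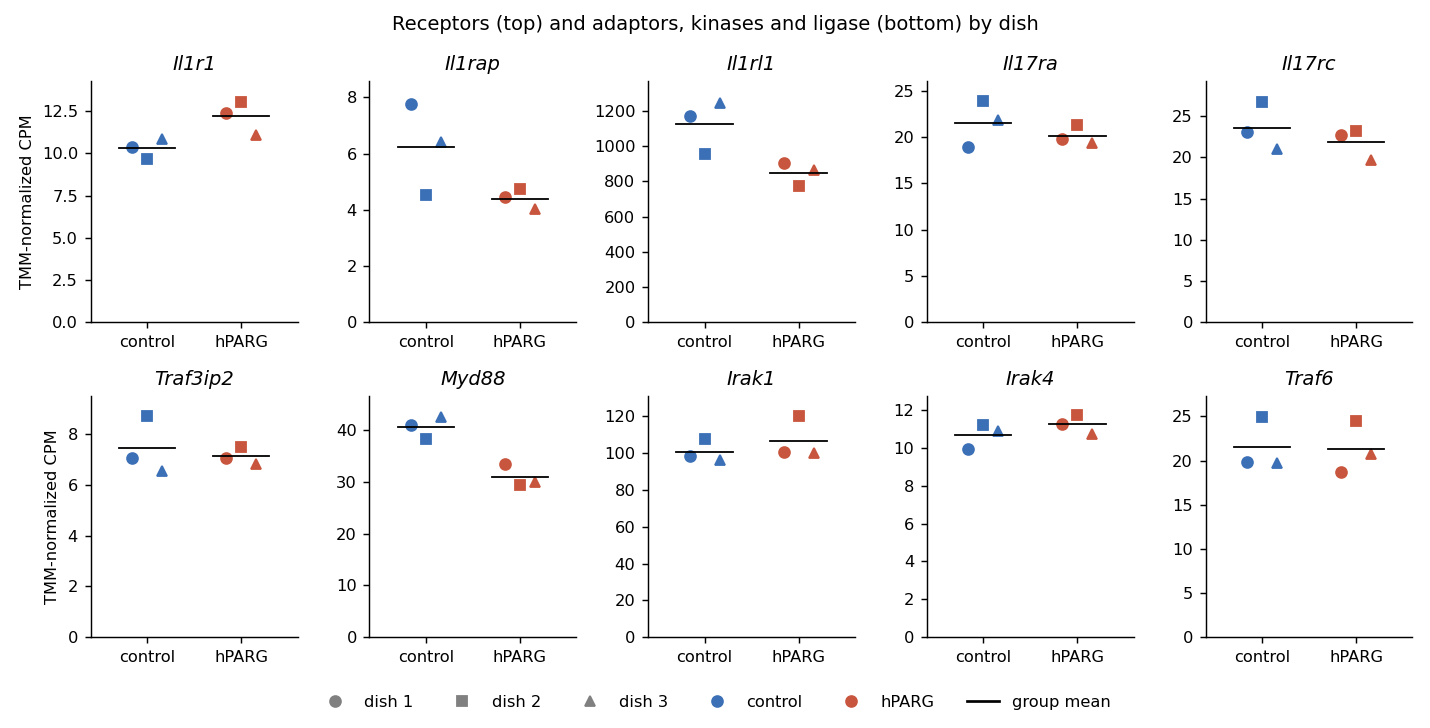
TMM-normalized CPM of the 10 genes in each dish (linear axes from 0, marker shape for the dish number, line for the mean of 3 dishes). The 3 hPARG dishes lie below the 3 control dishes for Il1rl1 and Myd88 and above them for Il1r1, and the groups overlap for the other 7 genes.

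Il1rl1, the IL-33 receptor, was the most abundant member per length and was lower in all hPARG dishes. Control dishes 1, 2 and 3 held 1167, 955.8 and 1243 CPM of Il1rl1 (29910, 22230 and 26381 counts). The hPARG dishes held 901.9, 772 and 863.2 CPM (19684, 18741 and 18827 counts). The highest hPARG dish stood below the lowest control dish, and within each group the dish numbered 2 was the lowest. The means were 1122 ± 149 and 846 ± 66.7 CPM, a log2 fold change of -0.41 (SE 0.13, 95% interval -0.72 to -0.10), which is 1.33-fold lower with an unadjusted p of 0.0163 and an FDR of 0.976. The gene spans chr1:40429570-40465415 in GRCm38 with 5 annotated transcripts, and counts per gene do not separate the secreted from the membrane form or the upstream from the downstream start.

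Il1r1, the signalling receptor of IL-1 (chr1:40225080-40317257), had higher CPM in every hPARG dish. Its levels were 10.4, 9.67 and 10.8 CPM in control dishes 1 to 3 and 12.4, 13.1 and 11.1 CPM in hPARG dishes 1 to 3. The lowest hPARG dish, number 3, lay just above the highest control dish, also number 3. The log2 fold change of 0.24 (SE 0.12, 95% interval -0.02 to 0.51) included 0 and did not pass edgeR's test (FDR = 0.999, with an unadjusted p of 0.0696). Non-overlapping groups with hPARG higher were seen for 1 of the 10 genes and for 3.61% of all tested genes, and with hPARG lower for 2 of the 10 and for 6.0%, together 3 of the 10 and 9.62%.

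Il1rap, the co-receptor that IL-1 and IL-33 receptors share (chr16:26581704-26730117), was the least abundant member per length. The control dishes spread widely, at 7.76, 4.51 and 6.41 CPM (199, 105 and 136 counts), and the hPARG dishes held 4.44, 4.74 and 4.03 CPM (97, 115 and 88 counts). Control dish 2 lay among the hPARG dishes, so the groups overlapped. The fit gave a log2 fold change of -0.50 (SE 0.21, 95% interval -0.99 to -0.01), the widest interval of the 10 genes, with an unadjusted p of 0.048 and an FDR of 0.999. It depended on the dishes, with -0.30 (FDR = 1.0) without control dish 1 and -0.74 (FDR = 0.292) without both dishes numbered 2. A noncoding gene on the other strand, Gm20319, covers 4.86% of the Il1rap exon bases, and whether the counting used strand is not stated in the sources used here.

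Both chains of the IL-17 receptor had overlapping groups. Il17ra, the common chain (chr6:120463247-120487559), held 18.9, 23.9 and 21.8 CPM in control dishes 1 to 3 and 19.8, 21.3 and 19.3 CPM in hPARG dishes 1 to 3. Il17rc, its partner (chr6:113471427-113483140), held 23.1, 26.7 and 20.96 CPM in control and 22.8, 23.2 and 19.7 CPM in hPARG dishes. The log2 fold changes were -0.09 (95% interval -0.37 to 0.18) for Il17ra and -0.11 (-0.41 to 0.19) for Il17rc, so that falls of more than 24.5% and rises of more than 13.9% lay outside both intervals. Traf3ip2, the adaptor that the IL-17 receptor engages (chr10:39612934-39655307), held 7.06, 8.69 and 6.55 CPM in control and 7.06, 7.497 and 6.83 CPM in hPARG dishes, with a log2 fold change of -0.06 (-0.40 to 0.28). None of the 3 IL-17 genes passed the test (FDR = 0.999 for each).

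Myd88, the adaptor below the IL-1 and IL-33 receptors (chr9:119335934-119341411), gave the smallest p of the 10 genes. The control dishes held 40.9, 38.2 and 42.5 CPM of Myd88 (1048, 889 and 902 counts). The hPARG dishes held 33.4, 29.4 and 30.0 CPM (729, 714 and 655 counts). As for Il1rl1, the 2 ranges did not meet and the dish numbered 2 was the lowest of its group. The means of 40.5 ± 2.16 and 31.0 ± 2.15 CPM differed by a log2 fold change of -0.39 (SE 0.10, 95% interval -0.63 to -0.15), or 1.31-fold, with an unadjusted p of 0.00532 and an FDR of 0.713. Exons of Acaa1a on the other strand cover 11.3% of the Myd88 exon bases. Over the 6 dishes the log2 CPM of Myd88 and Il1rl1 had a Pearson r of 0.946, a description over dishes that share the group difference.

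The kinases and the ligase below Myd88 had overlapping groups. Irak4, which is the first kinase to bind Myd88 (chr15:94543643-94581815), held 9.91, 11.2 and 10.9 CPM in control and 11.3, 11.7 and 10.7 CPM in hPARG dishes. Irak1, its substrate (chrX:74013914-74023918), held 98.3, 107.7 and 96.3 CPM in control and 100.4, 120.2 and 99.95 CPM in hPARG dishes. Traf6, where the IL-1 and IL-17 branches meet (chr2:101678429-101701669), held 19.8, 25.0 and 19.7 CPM in control and 18.7, 24.5 and 20.8 CPM in hPARG dishes. Their log2 fold changes were 0.08 for Irak4 (95% interval -0.18 to 0.33), 0.09 for Irak1 (-0.17 to 0.34) and -0.01 for Traf6 (-0.35 to 0.33), each with FDR = 0.999. For Il17ra, Il17rc, Traf3ip2, Irak1, Irak4 and Traf6 the dish numbered 2 was the highest of both groups, and for Il1rl1 and Myd88 it was the lowest of both. Part of the exon bases is shared with other genes for Irak4 (7.87%, Twf1), Traf3ip2 (7.95%, E130307A14Rik) and Irak1 (2.99%, with the microRNA genes Mir5132 and Mir718).

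**Figure D2:**
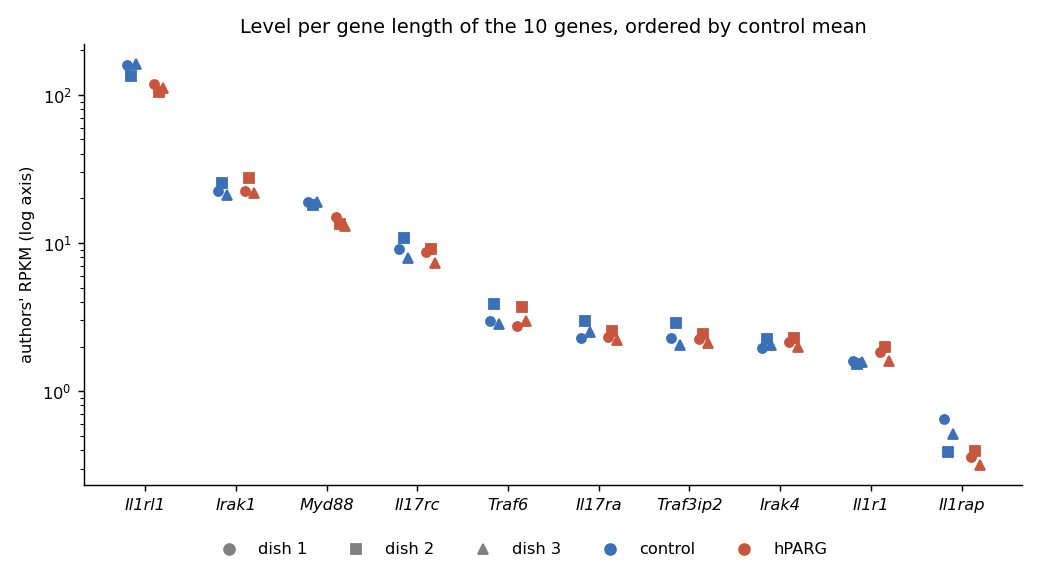
The authors' RPKM of the 10 genes in each dish on a log axis, ordered by the control mean. Il1rl1 lies between 104 and 161 RPKM, Il1rap between 0.318 and 0.647 RPKM, and the order of the means is the same in both groups.

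Levels between genes were compared per length, with the authors' RPKM. Il1rl1 had a mean of 151 ± 15.5 RPKM in the control dishes and 111 ± 7.46 RPKM in the hPARG dishes (SD, n = 3 each), and its control mean ranked 387 among all 41819 genes. Irak1 followed at 22.9 ± 2.13 and 23.8 ± 3.14 RPKM, then Myd88 at 18.6 ± 0.418 and 13.9 ± 1.01 RPKM and Il17rc at 9.25 ± 1.46 and 8.38 ± 0.922 RPKM, and their ranges did not meet those of their neighbours in either group. Traf6 (3.24 ± 0.557 and 3.14 ± 0.488 RPKM), Il17ra (2.58 ± 0.342 and 2.36 ± 0.184), Traf3ip2 (2.42 ± 0.442 and 2.26 ± 0.165) and Irak4 (2.08 ± 0.156 and 2.15 ± 0.148) lay close together. In the control dishes Traf6 overlapped with Il17ra, Il17ra with Traf3ip2 and Traf3ip2 with Irak4, while in the hPARG dishes Traf6 lay above Il17ra. Il1r1 stood below these 4 genes at 1.56 ± 0.040 and 1.81 ± 0.195 RPKM, and Il1rap was the lowest at 0.515 ± 0.131 and 0.358 ± 0.038 RPKM. The order of the 10 means was the same in both groups.

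Ratios of partners within a dish, which do not depend on the library total, set the members against each other. They are descriptions with no test, and 3 dishes against 3 could not give a permutation p below 0.1. Il1rap to Il1r1 stood at 0.408, 0.255 and 0.323 in control dishes 1 to 3 and at 0.195, 0.198 and 0.199 in hPARG dishes 1 to 3. The co-receptor was thus scarcer relative to the IL-1 receptor in each hPARG dish than in any control dish. These ratios rest on 199, 105 and 136 Il1rap counts in control dishes and 97, 115 and 88 in hPARG dishes. The hPARG values were closer together, but at these counts the spread within a group is uncertain. Il1rl1 exceeded the same co-receptor 301 ± 51.4-fold in control and 314 ± 43.6-fold in hPARG dishes, with overlapping ranges. This Il1rl1 level pools the secreted and the membrane form, so the ratio does not give the excess of the membrane receptor. Il17rc to Il17ra was 3.595 ± 0.428 in control and 3.545 ± 0.211 in hPARG dishes, also overlapping. Relative to Myd88, Irak4 was higher in each hPARG dish (0.144, 0.169 and 0.152) than in any control dish (0.103, 0.125 and 0.109). Irak1 to Myd88 had the same pattern, at 1.49, 2.03 and 1.65 in hPARG against 1.19, 1.40 and 1.12 in control dishes. Both ratios divide by Myd88, which was itself lower in every hPARG dish, while the groups overlapped for Irak4 and Irak1. How often ratios of other gene pairs separate in this way was not tested.

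**Figure D3:**
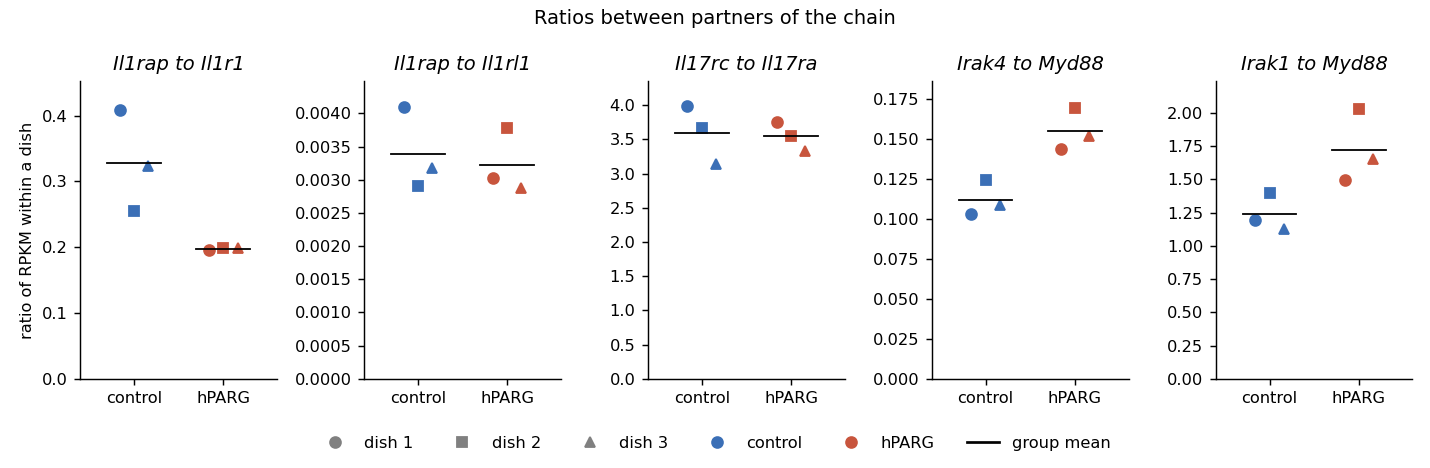
Ratio of RPKM between partners within each dish (linear axes from 0, marker shape for the dish number, line for the mean of 3 dishes). Il1rap to Il1r1 is lower, and Irak4 to Myd88 and Irak1 to Myd88 are higher, in each hPARG dish than in any control dish, while the other 2 ratios overlap.

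Il1r1 and Il1rl1 belong to a cluster of IL-1 receptor family genes on chromosome 1, in which levels differed widely. The order along the plus strand is Il1r2, Il1r1, Il1rl2, Il1rl1, Il18r1 and Il18rap, and these 6 are the only protein-coding genes of the table within the 477627 bases from the first to the last. Il1r2, a decoy receptor without signalling domain, held at most 1 count in a dish. The IL-36 receptor Il1rl2 held 22 to 37 counts, or 0.242 and 0.277 RPKM on average in control and hPARG dishes. Il18r1, the binding chain of the IL-18 receptor, lies 136 bases beyond the end of Il1rl1 and held at most 3 counts, whereas its partner Il18rap held 540 to 667 counts (5.04 and 4.84 RPKM). The most abundant gene of the cluster thus stood between a gene of few counts and a gene at the floor. The log2 fold changes were -0.03 for Il18rap and 0.23 for Il1rl2 (FDR = 0.999 for both), beside 0.24 for Il1r1 and -0.41 for Il1rl1.

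**Figure D4:**
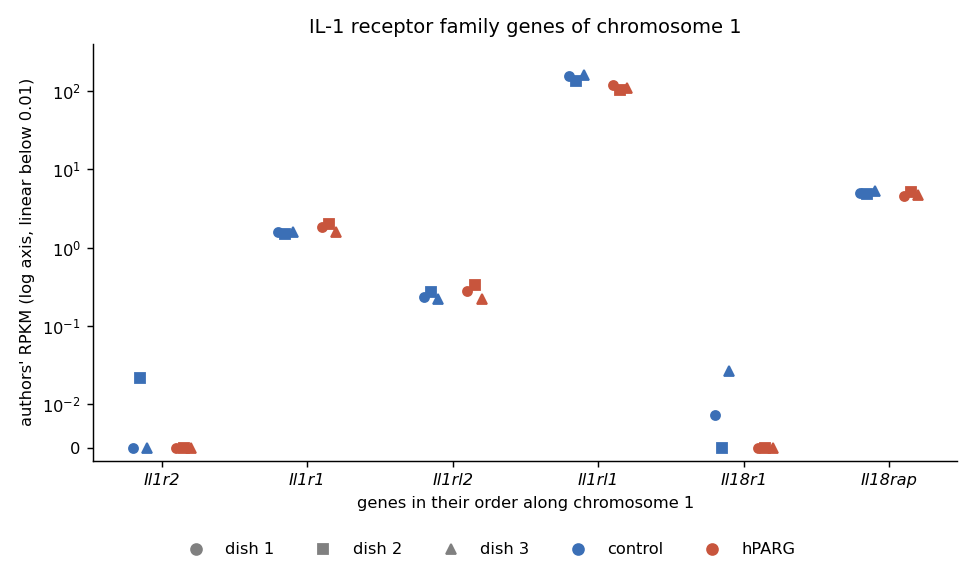
The authors' RPKM in each dish for the 6 IL-1 receptor family genes in their order along chromosome 1 (log axis, linear below 0.01). Il1rl1 lies above 100 RPKM, Il18rap near 5 RPKM and Il1r1 between 1.52 and 1.99 RPKM, while Il1r2 and Il18r1 lie at or near 0.

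The genes whose log2 CPM followed those of 3 receptors most closely over the 6 dishes were found by Pearson correlation over all tested genes, as a description. For Il1rl1 they were Abcf2 (r = 0.998), Ncbp2 (0.993) and Fgfr1op (0.992), for Il1r1 Zfp580 (0.993), Btbd1 (0.988) and Prepl (0.982), and for Il17ra Ofd1 (0.995), Rap2a (0.983) and Ikzf5 (0.974). None of these 9 genes was called (FDR = 0.999 for each). They were picked for the highest r among all tested genes, over 6 dishes that share the group difference. Joint regulation was not tested.

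Of the ligands, nearly all were at or near the floor. The list held 16 genes of the table, of which 7 had 0 counts in every dish and 12 at most 3 counts in every dish when taken with Il1b, Il1rn, Il17c, Il17d and Il17f. The ligands of the members are given outside the naming rule, chosen after their values were seen. Il33, the ligand of Il1rl1, held 5, 9 and 2 counts in control and 5, 3 and 2 counts in hPARG dishes. Il1a held 3, 4 and 1 counts in control and 1, 1 and 0 in hPARG dishes, and Il1b 2 counts in hPARG dish 1 and 0 in the others. Il17a had 0 counts in all dishes. The IL-18 antagonist Il18bp alone passed the filter, with a log2 fold change of 0.04 (FDR = 0.999). Of the 10 other receptors of both families, 4 passed the filter and 0 were called, beside 0.0869% of all tested genes.

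Among 20 further proximal signalling genes of the pathway 19 passed the filter and 0 were called, beside 0.0869% of all tested genes, and Irak3 had 0 counts in every dish. Their median log2 fold change was 0.04, and 2 of the 19 were lower in every hPARG dish than in any control dish, beside 6.0% of all tested genes. One of these was Sqstm1, a scaffold protein that binds Traf6, at 997 ± 55.5 CPM in control and 766 ± 53.0 CPM in hPARG dishes (log2 fold change -0.38, FDR = 0.821). Among 11 regulators of the IL-17 branch 0 were called, beside 0.0869% of all tested genes, and the median was -0.08. Of the 11, 3 had lower, non-overlapping hPARG groups, beside 6.0% of all tested genes. The 3 were Arid5a (-0.51, FDR = 0.999) and Srsf1 (-0.16, FDR = 0.999), both named after their values were seen, and Traf2 (-0.36, FDR = 0.965).

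Of 25 listed target genes of IL-1 and IL-17, 16 passed the filter, 8 were called lower with hPARG and 0 higher, and the median log2 fold change was -1.84. This list overlaps with the genes the study picked from these same dishes and was written with results known, so that neither its direction nor its size, nor its share beside the 0.0869% of all tested genes, is independent evidence. The called genes were the neutrophil chemokines Cxcl1 (-2.80) and Cxcl5 (-2.55), the chemokines Cxcl10 (-1.36) and Ccl20 (-3.30), and the secreted proteins Lcn2 (-5.08), Saa3 (-4.22), C3 (-2.80) and Hp (-2.78). In hPARG dishes 1 to 3 Lcn2 held 5, 1 and 4 counts and Saa3 held 3, 2 and 4. Both passed the filter through the control dishes only, and at these counts the size of their falls is uncertain. The monocyte chemokines Ccl2 (-1.66, FDR = 0.062) and Ccl7 (-2.02, FDR = 0.0795) did not pass the test. Nor did the cytokine Lif (-0.61), the transcription factors Cebpb (-0.51), Cebpd (-0.84) and Irf1 (-0.44) and the adhesion molecule Vcam1 (-0.44), with FDR between 0.167 and 0.766. The remaining tested target, Ptgs2, which is named outside the rule, had overlapping groups (-0.19, FDR = 0.999). Of 9 genes listed as inducible brakes of the pathway 1 was called, beside 0.0869% of all tested genes. This was Nfkbia, which holds NF-kB in the cytoplasm and fell by 1.11 on the log2 scale (FDR = 0.0216). The list of brakes was also written with results known, so its call is not independent evidence. On the same list Nfkbiz (-0.9995) and Zc3h12a (-1.15) had FDR = 0.062. The estimate for Dusp1, a MAP kinase phosphatase, was 0.41 (FDR = 0.821). The list name is a label only, and whether Nfkbiz acts as a brake in these cells was not tested. Tnfaip3 (-0.31), Tnip1 (-0.18), Cyld (-0.02), Otud7b (0.04) and Zfp36 (-0.02), named outside the rule, had FDR = 0.999.

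Over all 60 tested genes of the other pathway lists the median log2 fold change was -0.08, as it was over the 10 chain genes. Of the 60, 9 were called lower and 0 higher, beside 0.0869% of all tested genes. As all lists were written with results known, this count and its contrast with the chain are not independent evidence. These lists held 2 calls without hPARG dish 1, 4 without hPARG dish 3 and 14 without both dishes numbered 2, and the chain 0 in each case. The estimates of the chain genes ran from -0.50 (Il1rap) to 0.24 (Il1r1). Those of the other 60 ran from -5.08 (Lcn2, near the floor in hPARG dishes) to 0.41 (Dusp1).

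**Figure D5:**
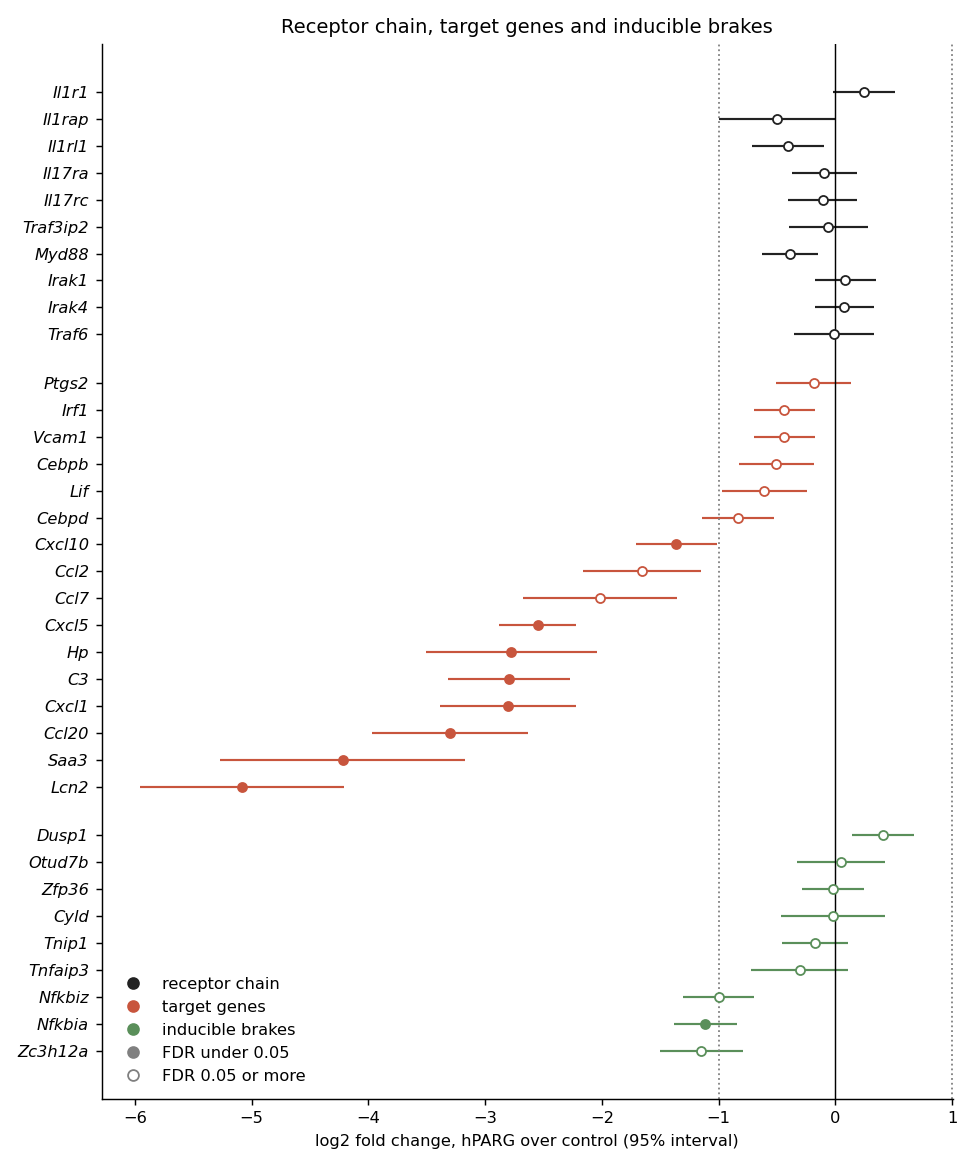
Log2 fold changes of hPARG over control with 95% intervals from edgeR for the 10 chain genes, the 16 tested target genes and the 9 genes listed as inducible brakes (filled points for FDR under 0.05, dotted lines at a 2-fold difference). All intervals of the chain genes lie between -0.99 and 0.51, and the called target genes lie between -5.08 and -1.36. Lcn2 and Saa3, the lowest of these, are near the floor of counts in hPARG dishes.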

How the data were processed

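The authors selected poly(A) RNA and sequenced it as paired-end reads, which were mapped in CLC Genomics Workbench against GRCm38 and Ensembl annotation 96. The authors deposited counts per gene, whole numbers without normalization, and RPKM values, scaled by gene length and by an unstated total per library. Their deposited TPM and CPM columns (12) and the columns of their own comparison (fold changes, p-values, FDR, Bonferroni values and group means) were not used. The human cassette has no row.

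All 41819 gene identifiers were found in GENCODE M21, the source of coordinates. Genes were filtered with filterByExpr (minimum count 10), normalized by TMM and tested by edgeR 4.0.16 under R 4.3.3 with limma 3.58.1 (glmQLFit, then glmQLFTest), 3 control against 3 hPARG dishes without a block, with Benjamini-Hochberg adjustment over 11509 genes. Called means FDR under 0.05, and all called genes differed by over 2-fold. A standard error is the log2 fold change over the square root of F. The fits were tested on simulated counts. The 10 genes and all lists were chosen with earlier results of these data known. Named by rule are the 10 genes, list genes called with or without the replicate block, ligands over 3 counts in every dish and the 3 genes most correlated with Il1rl1, Il1r1 and Il17ra. The kappa B consensus was the usual 10-base one, searched on both strands. Of the ligands, 3 were matched by older names and Il36rn was not matched. Alternatives were DESeq2 1.42.0, other normalizations and filters, the likelihood ratio test, a gene length offset, the replicate block and dishes left out. Precision is limited by 3 dishes a group.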

Additional observations from a re-analysis of the deposited data

How the results depend on the processing

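The 0 calls among the 10 chain genes stood in 14 of 16 alternatives. Il1rl1 (-0.51 to -0.33), Myd88 (-0.45 to -0.35), Il1rap (-0.74 to -0.30) and Il1r1 (0.15 to 0.31) kept their direction in all 16, as did Il17ra, Il17rc and Irak4. With 1 dish left out, Traf3ip2 ranged from -0.142 to 0.0667 (above 0 without control dish 2), Irak1 from -0.00879 to 0.136 (below 0 without hPARG dish 2) and Traf6 from -0.123 to 0.112 (above 0 without control dish 2, hPARG dish 1 or hPARG dish 3). Without both dishes numbered 2, Traf3ip2 was 0.0322 and Traf6 0.00421.

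With the replicate block, 2 of the 10 genes were called, Il1rl1 (-0.40, FDR = 0.0023) and Myd88 (-0.39, FDR = 0.0122), and 2 also when it was joined to the length offset (FDR = 0.0112 and 0.0197). The replicate numbers did not meet the rule for pairing, since the deviations of dishes with the same number correlated at 0.0963, 0.610 and 0.168, and control dishes 1 and 3 correlated best with hPARG dishes numbered 3 and 1. The block lowered the biological coefficient of variation from 14.8% to 6.15% and called 330 genes (2.87%), 23 over 2-fold and 21 in the other pathway lists. With the length offset as well these were 269, 25 and 21.

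All calls, those over 2-fold and those in the other pathway lists, 10, 10 and 9 in the report, were 52, 22 and 14 with DESeq2, 65, 30 and 14 with the likelihood ratio test, 25, 19 and 14 with the length offset alone and 40, 19 and 14 without both dishes numbered 2. Without a filter, 16 were called, all 16 over 2-fold. Leaving out 1 dish gave 3 to 13, 3 to 13 and 2 to 11, with 3, 3 and 2 without hPARG dish 1 and 5, 5 and 4 without hPARG dish 3, and 0 of the chain genes each time. On CPM per kilobase of exon, Il1rap to Il1r1 was 0.203 in hPARG dishes, and Irak4 to Myd88 0.135 in control and 0.187 in hPARG dishes. The causes of these shifts were not tested. At 88 to 199 counts a dish, Il1rap was the member with the least depth.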
